A study of Mus musculus with 32 samples.

Results

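The expression of 10 genes of the inhibitory checkpoint system was followed across all samples of the series, namely the ligands Cd274 and Pdcd1lg2, the receptors Pdcd1, Ctla4, Lag3, Havcr2 and Tigit, the enzyme Ido1, and the B7 molecules Cd80 and Cd86. They were chosen by symbol, and all 10 were found among the 29511 genes of the count table and the 29434 genes of the FPKM table. The 32 RNA-seq samples came from female mice of the FVB/N strain, wildtype (WT) or germline knockout (KO) for the chloride intracellular channel gene Clic4. The 12 primary tumors, 6 from KO and 6 from WT hosts, had grown for 14 days in the fourth mammary fat pad from injected 6DT1 cells, a mouse mammary tumor line that carries Clic4 in both hosts. The 12 lungs of tumor-bearing mice, 6 KO and 6 WT, were taken at the same 14 days, and the 8 control lungs, 4 KO and 4 WT, came from mice at baseline without a graft. The hosts were virgin littermates of heterozygous intercrosses, used at 6 to 8 weeks of age. A tumor sample therefore holds RNA of tumor cells with Clic4 beside RNA of host cells with or without it.

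Checkpoint genes restrain T cells. Binding of CD274 (PD-L1) or PDCD1LG2 (PD-L2) on tumor or myeloid cells to PDCD1 (PD-1) on T cells dampens signaling through the T cell receptor, and CTLA4 competes with the costimulatory receptor CD28 for CD80 and CD86. LAG3, HAVCR2 (TIM-3) and TIGIT are further receptors of activated or exhausted T cells, and HAVCR2 is also found on myeloid cells. IDO1 degrades tryptophan to kynurenine, and its gene, like Cd274, is known to be induced by interferon gamma.

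The 32 libraries held 4446323 to 8318711 counts assigned to genes, and at this depth several of the 10 genes rested on few counts. In KO lungs Clic4 itself was lower but not absent, at 55.4 to 74.6 FPKM against 155 to 230 FPKM in WT lungs. There, per the study, reads outside the excised exon still count. Tumors of KO hosts held 58.9 to 69.0 FPKM against 74.65 to 82.2 FPKM in tumors of WT hosts. These values include Clic4 RNA of the injected 6DT1 cells. One tumor of a WT host, WT tumor 2, stood apart in B cell markers (summed 69.9 CPM, counts scaled to library size, against 2.85 to 6.93 in the other 11 tumors) and in lymph node stroma markers (60.0 CPM against 0.155 to 6.12). Leaving it out kept the calls of checkpoint genes in tumors described next, with edgeR FDRs of 0.00404 for Cd274 and Ido1, 0.00155 for Pdcd1lg2 and 0.0416 for Pdcd1. For every one of the 10 genes the highest of the 12 tumors was KO tumor 5 or KO tumor 6, and the fold changes of the checkpoint genes in tumors are given with and without both, except for Lag3, which then had too few counts to be tested. These 2 libraries were also the deepest of the tumors, at 6509502 and 6518501 counts. The other tumors of KO hosts held 4542719 to 4993668 counts, and those of WT hosts 4446323 to 6354058. The part of depth in the values of KO tumors 5 and 6 was not tested. The tissues carried their own markers, with the surfactant gene Sftpc at 6852 to 9935 FPKM in lungs and 0 to 0.74 FPKM in tumors, and the keratin gene Krt8 at 164 to 275 FPKM in tumors and 42.9 to 77.7 FPKM in lungs.

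Promoter sequences from RefSeq (GRCm38.p6) were listed for 7 of the 10 genes, all but Ido1, Lag3 and Cd86. For Tigit alone, the bases after the listed start were found in none of its GENCODE transcripts, so its window is in doubt. Distances are counted from the RefSeq start. That of Cd274 follows base 29367437, a little before the GENCODE gene start of 29367455. Those of Havcr2, Ctla4 and Cd80 also differ from the GENCODE gene start. The 250 bases before the start were searched on both strands for an interferon regulatory factor core, AANNGAAA. The core was found in 3 of the 7, Cd274, Pdcd1lg2 and Pdcd1, and in 21.3% of all 32851 promoters in that table. The matches are shown because these 3 genes were also called in tumors, with the core in capitals, here read on the opposite strand. For Cd274 only 30 bases are given, 186 to 157 bases before the start, since they lie in an untranslated first exon of the neighbouring gene Plgrkt. The other stretches are the whole 250 bases.
Cd274, chr19:29367252-29367281, plus strand: ccgaagcctagTTTCGTTTtttcttaaact
Pdcd1lg2, chr19:29410669-29410918, plus strand: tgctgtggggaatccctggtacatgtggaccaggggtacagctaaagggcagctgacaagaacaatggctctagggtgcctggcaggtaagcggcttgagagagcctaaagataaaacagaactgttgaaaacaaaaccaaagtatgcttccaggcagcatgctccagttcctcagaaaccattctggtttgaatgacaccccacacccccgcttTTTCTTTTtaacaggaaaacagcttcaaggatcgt
Pdcd1, chr1:94052554-94052803, minus strand: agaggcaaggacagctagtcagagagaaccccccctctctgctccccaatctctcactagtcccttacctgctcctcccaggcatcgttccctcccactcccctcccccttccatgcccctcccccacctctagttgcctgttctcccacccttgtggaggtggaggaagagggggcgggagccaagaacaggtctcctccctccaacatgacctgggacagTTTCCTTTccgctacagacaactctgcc
The core began 175 bases before the RefSeq start of Cd274, 35 before that of Pdcd1lg2 and 28 before that of Pdcd1. A match of 8 letters, 2 of them free, is a description of the sequence.

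The first question was whether host Clic4 changed checkpoint expression in the primary tumor. Of the 10 genes, 4, namely Ido1, Pdcd1lg2, Pdcd1 and Cd274, rose in tumors of KO hosts, each by more than 2-fold. Calls were made with edgeR's quasi-likelihood test over 13830 genes at an FDR (Benjamini-Hochberg adjusted p) of 0.05, by which 2.51% of genes were called in either direction, 2.02% as higher in KO hosts and 1.01% as higher by more than 2-fold. All 10 genes had a positive log2 fold change and 8 had an unadjusted p under 0.05, as did 15.5% of all genes tested. Their median log2 fold change was 1.15, against -0.01 over all genes tested, and 0.87 over the 9 tested without KO tumors 5 and 6. DESeq2 called 5 of the 10, adding Ctla4. Since these are whole tumors, more cells of a type and more RNA per cell cannot be told apart.

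Cd274 encodes the PD-1 ligand PD-L1 (ENSMUSG00000016496, chromosome 19, plus strand, 29367455 to 29388095 of GRCm38 in GENCODE M21). In FPKM, tumors of KO hosts ranged from 13.3 to 37.4 with a median of 15.7, and tumors of WT hosts from 4.73 to 8.75 with a median of 5.77. The groups did not overlap, and even the lowest tumor of a KO host exceeded the highest of a WT host. The means were 19.3 ± 9.23 and 6.03 ± 1.44 FPKM (SD, n = 6 each), and the log2 fold change was 1.73 ± 0.24 (SE, edgeR FDR 0.000819). KO tumor 5 held the top value, 37.4 FPKM, well above the next, 20.01 FPKM in KO tumor 6. Without both, the log2 fold change was 1.33 ± 0.14 (edgeR FDR 0.000787).

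Pdcd1lg2, the second PD-1 ligand gene (ENSMUSG00000016498, chromosome 19, plus strand, 29410919 to 29471161), lies 43.5 kb downstream of the start of Cd274. Its FPKM ran from 7.59 to 14.7 with a median of 10.3 in tumors of KO hosts, and from 1.39 to 4.17 with a median of 1.83 in tumors of WT hosts. Again the groups did not overlap. Here the spread among tumors of KO hosts was narrow (mean 10.8 ± 2.41 FPKM, SD, n = 6) beside the distance to WT hosts (2.47 ± 1.28 FPKM). The log2 fold change was 2.17 ± 0.27 (edgeR FDR 0.000322), and 1.98 ± 0.30 without KO tumors 5 and 6 (edgeR FDR 0.00598).

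Pdcd1, the receptor of both ligands on T cells (ENSMUSG00000026285, chromosome 1, minus strand, 94038305 to 94052553), was read at low depth, with 12 to 61 counts in tumors of KO hosts and 1 to 15 in those of WT hosts. Its FPKM ranged from 1.49 to 5.43 (median 2.33) in KO hosts and from 0.12 to 1.37 (median 0.98) in WT hosts. The groups did not overlap, but the gap between them was only that from 1.37 to 1.49 FPKM. The log2 fold change was 1.86 ± 0.40 (edgeR FDR 0.0216). This call was lost without KO tumor 5 (edgeR FDR 0.0670), without KO tumor 6 (edgeR FDR 0.0659) and without both (log2 fold change 1.34 ± 0.41, edgeR FDR 0.223).

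Ido1, which encodes the tryptophan-degrading enzyme (ENSMUSG00000031551, chromosome 8, minus strand, 24584136 to 24597009), had the largest log2 fold change of the 10 genes. Tumors of KO hosts held 4.54 to 18.9 FPKM (median 6.08) and tumors of WT hosts 0.74 to 1.95 FPKM (median 1.33). The groups did not overlap, and within KO hosts KO tumor 6 (18.9 FPKM) and KO tumor 5 (15.7 FPKM) stood far above the other 4, which reached 6.33 FPKM. The log2 fold change was 2.87 ± 0.41 (edgeR FDR 0.000889). Leaving out both tumors lowered it to 2.08 ± 0.26 (edgeR FDR 0.00208). Counts of Ido1 were 29 to 168 in tumors of KO hosts and 5 to 15 in those of WT hosts. Ido1 and Pdcd1 passed the filter on low counts through the KO hosts, where they were high. Their WT levels rest on few counts. With the filter left out both were still called (edgeR FDR 0.00029 and 0.024). The 4 genes named so far were those whose groups did not overlap in FPKM, which 1.05% of 13804 genes with one symbol did with KO hosts higher.

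**Figure D1:**
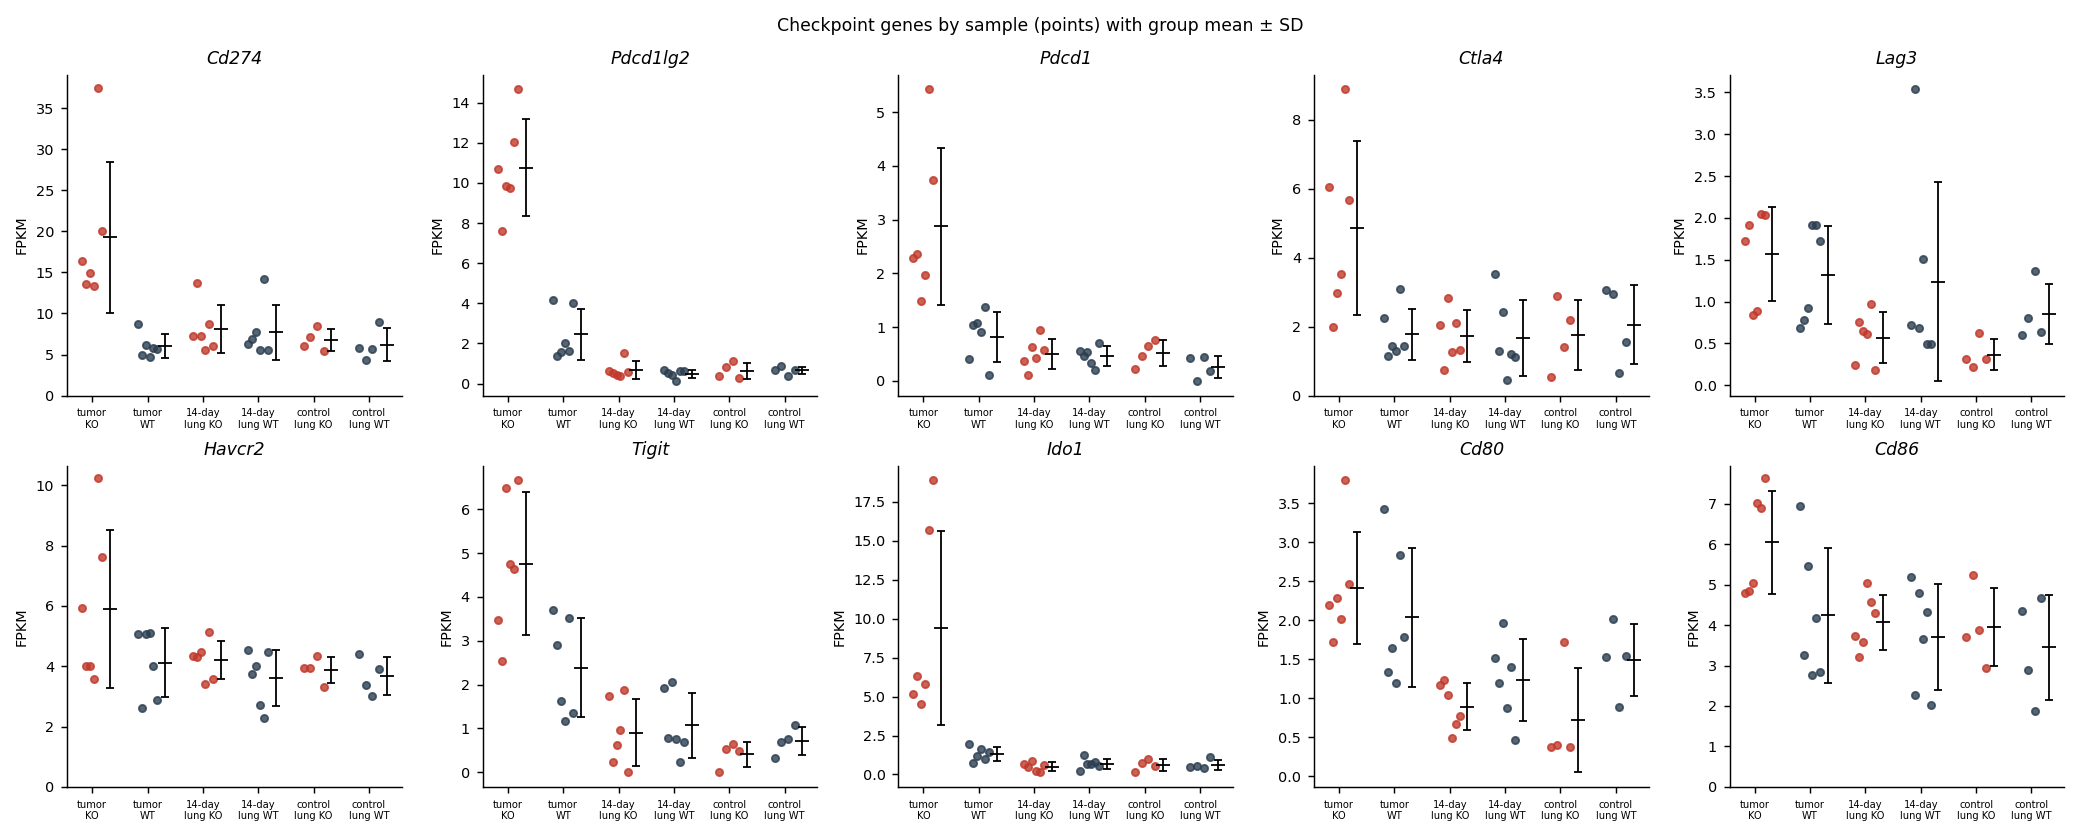
FPKM of the 10 genes in each sample (points) of the 6 groups, KO in red and WT in dark blue, with the group mean ± SD as a bar beside the points; each panel has its own linear y axis. In the panels of Cd274, Pdcd1lg2, Pdcd1 and Ido1 the tumors of KO hosts lie above every tumor of a WT host, while the 4 lung groups overlap in all panels.

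The other T cell receptors were higher in many tumors of KO hosts without passing the limit. Ctla4, the rival of CD28 (ENSMUSG00000026011, chromosome 1, plus strand, 60887000 to 60915832), ranged from 1.99 to 8.89 FPKM (median 4.6) in tumors of KO hosts and from 1.16 to 3.09 FPKM (median 1.43) in those of WT hosts. The groups overlapped, with 4 of 6 tumors of KO hosts above every tumor of a WT host. Its log2 fold change of 1.28 ± 0.34 had an edgeR FDR of 0.0601, and passed with DESeq2 (adjusted p 0.0123), without KO tumor 2 (edgeR FDR 0.0386) and without KO tumor 4 (edgeR FDR 0.0352). Without KO tumors 5 and 6 it was 0.82 ± 0.33 (edgeR FDR 0.387). On log2(FPKM + 1), the exact two-sided permutation p, unadjusted, was 0.0108.

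Tigit, a receptor for the poliovirus receptor (ENSMUSG00000071552, chromosome 16, minus strand, 43648867 to 43664146), ran from 2.54 to 6.66 FPKM (median 4.70) in KO hosts and from 1.18 to 3.71 FPKM (median 2.27) in WT hosts. The groups overlapped between 2.54 and 3.71 FPKM, and the log2 fold change was 1.01 ± 0.30 (edgeR FDR 0.102), or 0.87 ± 0.36 without KO tumors 5 and 6 (edgeR FDR 0.398). The exact permutation p of Tigit on log2(FPKM + 1), two-sided and unadjusted, was 0.0238. Havcr2 (TIM-3; ENSMUSG00000020399, chromosome 11, plus strand, 46454935 to 46481255) ranged from 3.58 to 10.3 FPKM (median 4.98) against 2.63 to 5.09 FPKM (median 4.53). Only 3 tumors of KO hosts, numbers 1, 5 and 6, exceeded the WT range. Its log2 fold change fell from 0.58 ± 0.26 (edgeR FDR 0.312) to 0.14 ± 0.23 (edgeR FDR 0.875) without KO tumors 5 and 6.

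Lag3, which binds MHC class II molecules (ENSMUSG00000030124, chromosome 6, minus strand, 124904361 to 124911705), had 7 to 24 counts in tumors of KO hosts and 5 to 15 in those of WT hosts. Its FPKM ranged from 0.84 to 2.05 (median 1.82) against 0.69 to 1.92 (median 1.32), and the groups overlapped over most of their range. The log2 fold change was 0.57 ± 0.32 (edgeR FDR 0.425). FPKM of Lag3 is a weak measure here, because the CPM that 1 FPKM stood for differed by 7.10-fold between samples, against 1.11-fold for Cd274. For Ctla4 and Cd86 it differed by 1.76-fold and 2.30-fold, and for the other genes by at most 1.14-fold.

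By edgeR with all 12 tumors, the B7 molecules of antigen-presenting cells had the 2 smallest log2 fold changes, Cd86 only just below Lag3 (0.57). This order did not hold throughout. Without KO tumors 5 and 6, Havcr2 (0.14) lay below Cd86. On log2(FPKM + 1) the 2 smallest differences were those of Lag3 (0.155) and Cd80 (0.191). Cd80 (ENSMUSG00000075122, chromosome 16, plus strand, 38455561 to 38496335) held 1.72 to 3.79 FPKM (median 2.25) in tumors of KO hosts and 1.20 to 3.42 FPKM (median 1.72) in those of WT hosts. Only KO tumor 5 lay above the WT range, and the log2 fold change was 0.28 ± 0.27 (edgeR FDR 0.672), or 0.05 ± 0.31 without KO tumors 5 and 6 (edgeR FDR 0.972). Cd86 (ENSMUSG00000022901, chromosome 16, minus strand, 36603869 to 36666081) ranged from 4.80 to 7.65 FPKM (median 5.97) against 2.77 to 6.95 FPKM (median 3.73). Every tumor of a KO host exceeded the WT median, yet the groups overlapped, and the log2 fold change was 0.54 ± 0.22 (edgeR FDR 0.259), or 0.32 ± 0.24 without both tumors (edgeR FDR 0.681).

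**Figure D2:**
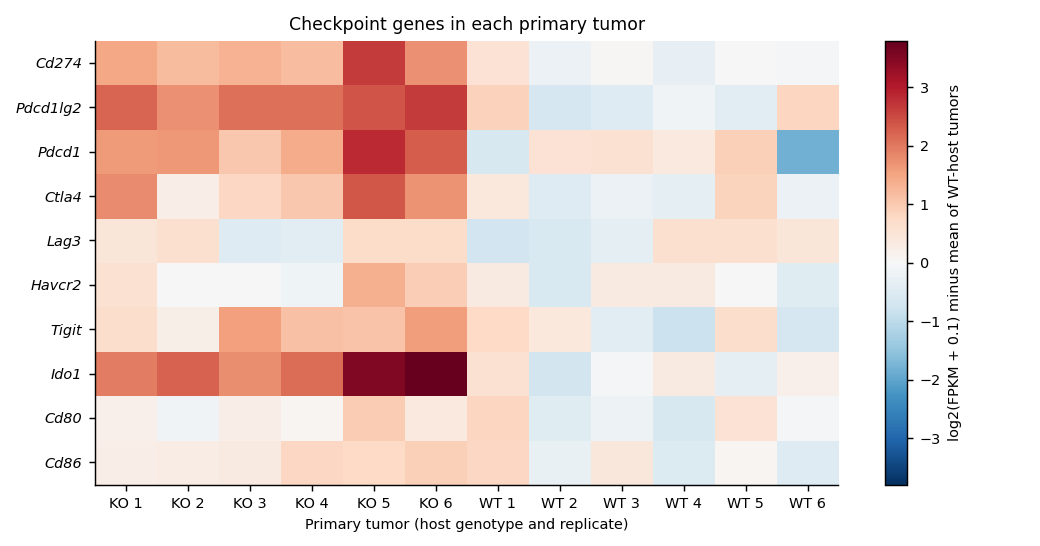
Each of the 12 primary tumors (columns) and 10 genes (rows), colored by log2(FPKM + 0.1) minus the mean of the 6 tumors of WT hosts, red for higher and blue for lower. The columns of KO tumors 5 and 6 are the darkest red in most rows, and the rows of Cd274, Pdcd1lg2, Pdcd1 and Ido1 are red in all 6 tumors of KO hosts.

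KO tumors 5 and 6 held the highest value of all 10 genes in TMM-normalized CPM as well as in FPKM, and for 7 of the 10 they took the first 2 places in CPM. Without them, 3 of the 10 genes were called (Cd274, Pdcd1lg2 and Ido1), and Lag3 no longer had enough counts to be tested. The summed T cell markers were highest in KO tumor 6 among tumors of KO hosts (60.6 CPM, with 51.4 CPM in KO tumor 5, a median of 50.3 CPM and a lowest value of 32.6 CPM). KO tumor 5 was highest in macrophage and monocyte markers (1192 CPM, with 1064 CPM in KO tumor 6 and a lowest value of 805 CPM) and in genes of the interferon gamma axis (1714 CPM, with 1572 CPM in KO tumor 6 and a lowest value of 1069 CPM). The part of these in the checkpoint values of both tumors was not tested.

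All 8 T cell markers had a positive log2 fold change and 2 were called, Cd3d (1.46 ± 0.35, edgeR FDR 0.0391) and Cd3g (1.31 ± 0.31, edgeR FDR 0.0389), which encode chains of the T cell receptor complex. Their summed level was 32.6 to 60.6 CPM in tumors of KO hosts and 10.5 to 50.2 CPM in those of WT hosts, and none was at 0 in a whole group. The top value of WT hosts was that of WT tumor 2, and the other 5 reached 29.3 CPM. Of the 9 macrophage and monocyte markers all were higher and 1 was called, C1qb (0.73 ± 0.17, edgeR FDR 0.0371). Of 4 tested NK cell markers 3 were higher and 1 was called, Klrk1, an activating receptor of NK and T cells (1.19 ± 0.27, edgeR FDR 0.0306). Of 4 tested cytotoxic granule genes all were higher and 1 was called, Nkg7 (1.35 ± 0.26, edgeR FDR 0.0093). Of 3 regulatory T cell markers 2 were higher and 0 were called, with Foxp3 at -0.14 ± 0.24 (edgeR FDR 0.844), Il2ra at 0.77 ± 0.23 (edgeR FDR 0.095) and Ikzf2 at 0.35 ± 0.09 (edgeR FDR 0.0639). Of 8 dendritic cell markers 4 were higher and 0 were called. All 5 adipocyte markers were higher too, with a median of 0.89, and 0 were called. The part of cell numbers in the checkpoint values was not tested, and these marker genes were not tested without WT tumor 2 or KO tumors 5 and 6.

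Genes that work with the checkpoint molecules were listed as 7 groups, tested with all 12 tumors only. Of 9 tested genes of the interferon gamma axis all were higher and 6 were called, among them the transcription factor gene Irf1 (1.16 ± 0.10, edgeR FDR 4.33e-05), Nlrc5, the activator of MHC class I genes (1.75 ± 0.17, edgeR FDR 6.93e-05), and Jak2, a kinase of the interferon gamma receptor (0.50 ± 0.08, edgeR FDR 0.00163). Ifng itself had too few counts to be tested. Among 8 tested further members of the B7 and CD28 family, 5 were higher and 2 were called, the costimulator Icos (1.02 ± 0.26, edgeR FDR 0.0492) and Tnfrsf14, the ligand of BTLA (0.77 ± 0.14, edgeR FDR 0.00452).

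The ligands of the receptors gave little. Of 11 tested ligands and partners of Lag3, Havcr2 and Tigit, 0 were called as higher and 1 as lower, the nectin gene Pvrl3 (-0.68 ± 0.11, edgeR FDR 0.00325). No gene was called among 8 of TNF superfamily costimulation, 6 macrophage checkpoint and adenosine genes, or 5 further tryptophan and kynurenine enzymes. Their median log2 fold changes were 0.43, 0.42 and 0.01. Apart from Ido1, then, the tryptophan pathway genes tested gave no call, with Wars, the tryptophan tRNA ligase, nearest to the limit (0.48 ± 0.13, edgeR FDR 0.0684).

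**Figure D3:**
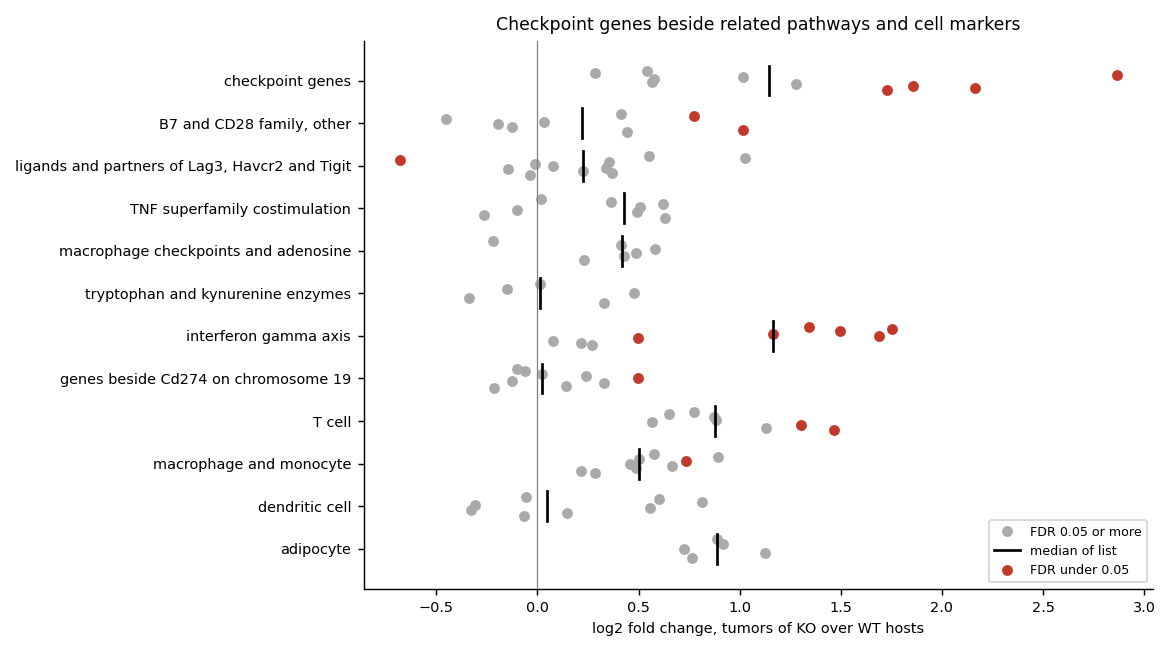
Log2 fold change in tumors of KO over WT hosts for each tested gene (points) of the checkpoint genes, 7 related lists and 4 marker lists, red for an FDR under 0.05 and grey otherwise, with the list's median as a black line. The checkpoint genes and the interferon gamma axis have medians of 1.15 and 1.16, and the other pathway lists lie between 0.01 and 0.43.

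Cd274 and Pdcd1lg2 are neighbours on chromosome 19, with Jak2 starting 115.6 kb before Cd274. Plgrkt, which starts 0.1 kb from Cd274 on the other strand, gave 0.24 ± 0.10 (edgeR FDR 0.282). Jak2 was the only other gene called among the 9 tested around the pair. Ric1 (0.02 ± 0.07, edgeR FDR 0.933), Ermp1 (-0.06 ± 0.07, edgeR FDR 0.735) and Uhrf2 (-0.10 ± 0.08, edgeR FDR 0.603) lie beyond Pdcd1lg2. On the other side lie Rcl1 (-0.12 ± 0.12, edgeR FDR 0.680), Ak3 (-0.21 ± 0.12, edgeR FDR 0.441), Cdc37l1 (0.14 ± 0.13, edgeR FDR 0.659) and Ppapdc2 (0.33 ± 0.16, edgeR FDR 0.330). Insl6, Rln1 and Mlana had too few counts to be tested.

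**Figure D4:**
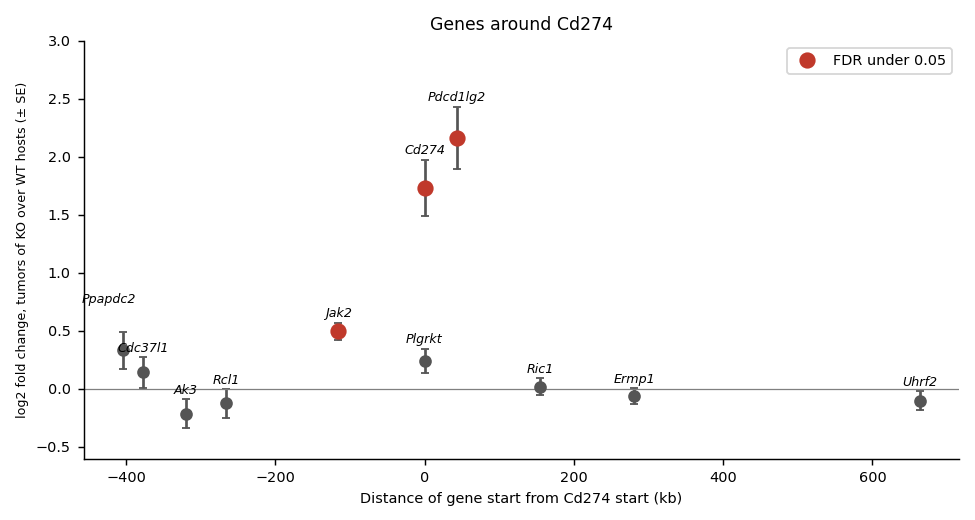
Log2 fold change (± SE, edgeR) in tumors of KO over WT hosts against the distance in kb of each gene's start from that of Cd274, with genes past an FDR of 0.05 in red. Cd274, Pdcd1lg2 and Jak2 are past the limit, and the other tested genes of the stretch lie between -0.21 and 0.33.

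The lungs were compared to ask whether a distant tumor or the host genotype changed checkpoint genes at the future metastatic site. Only 5 of the 10 genes passed the filter on low counts over 20 lungs (Cd274, Ctla4, Havcr2, Cd80 and Cd86), and edgeR over 16029 genes called 0 of them at the FDR of 0.25 used for lungs. This held for KO against WT lungs at 14 days (0.861% of all genes called), 14-day against control lungs in KO (1.05%) and in WT mice (2.33%), KO against WT control lungs (0.973%) and the interaction of genotype and tumor (0.0499%). DESeq2 called 0 as well. An unadjusted p under 0.05 was found in 1 of these tests by either tool, Cd80 in control lungs with a log2 fold change of -0.99 ± 0.46 (edgeR FDR 0.412). By edgeR, 11.6% of all genes tested had such a p in control lungs and 8.34% to 11.8% in the other lung comparisons, so that 1 is no more than the background.

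Cd274 had the best depth of the 10 genes in lungs, with 83 to 279 counts. Its FPKM ranged from 5.55 to 13.7 (median 7.22) in 14-day KO lungs and from 5.53 to 14.2 (median 6.56) in 14-day WT lungs. Control lungs held 6.04, 7.18, 8.52 and 5.42 FPKM in KO mice and 5.78, 4.29, 5.70 and 9.01 FPKM in WT mice. All 4 groups overlapped, and the 14-day difference between KO and WT was 0.07 ± 0.24 (log2, edgeR FDR 0.969).

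The range of Cd274 at 14 days was set by 2 lungs, KO lung 2 (13.7 FPKM) and WT lung 5 (14.2 FPKM), while the other 18 lungs held 4.29 to 9.01 FPKM. The same 2 lungs led 8 antiviral interferon genes picked after their values were seen. Mx1 stood at 14.0 and 15.8 FPKM there against 0.44 to 3.34 FPKM in the others, and Ifit1 at 76.3 and 81.7 FPKM against 3.67 to 25.9 FPKM. Ido1, also known as an interferon target, was 0.51 and 0.77 FPKM in these lungs against 0.14 to 1.22 FPKM, and Pdcd1lg2 was 0.51 and 0.61 against 0.13 to 1.54 FPKM. These 2 lungs were picked for their Cd274 values, so that Cd274 above the other 18 was given by the choice. None of the other checkpoint genes lay above all the other lungs in both. The part of the antiviral genes in these values was not tested. Without both lungs the log2 change of Cd274 from control to 14 days moved from 0.26 to 0.03 in KO mice and from 0.31 to 0.04 in WT mice, none of them called. This drop, too, follows from picking the lungs by Cd274.

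Havcr2 and Cd86 overlapped across all 4 lung groups. Havcr2 ranged from 2.29 to 5.14 FPKM and Cd86 from 1.88 to 5.25 FPKM over all 20 lungs, with control values of 3.95, 3.95, 4.35 and 3.31 FPKM for Havcr2 in KO mice and 4.42, 3.37, 3.01 and 3.92 FPKM in WT mice. Ctla4 ranged from 0.44 to 3.53 FPKM and Cd80 from 0.38 to 2.01 FPKM. In control lungs Cd80 was 0.38, 0.40, 1.72 and 0.38 FPKM in KO mice and 1.53, 2.01, 0.89 and 1.54 FPKM in WT mice, so that KO lung 3 fell among the WT values. The remaining 5 genes had at most 13 counts in any lung, Pdcd1 0 to 8, Tigit 0 to 10, Ido1 1 to 9, Pdcd1lg2 1 to 11 and Lag3 2 to 13, and did not pass the filter. With the filter left out, all 10 were tested and 0 were called in each lung comparison.

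**Figure D5:**
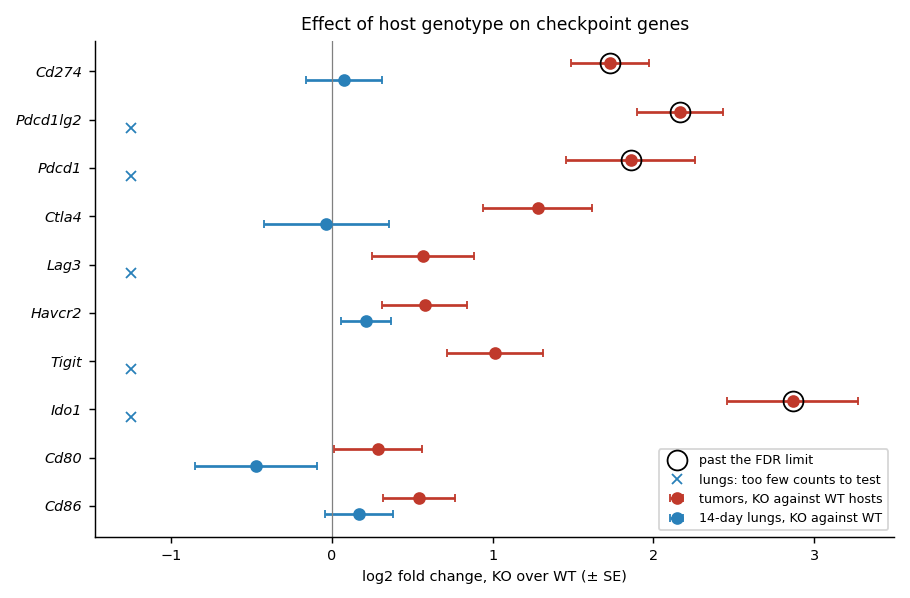
Log2 fold change (± SE, edgeR) of KO over WT for the 10 genes in primary tumors (red) and in 14-day lungs (blue), with a ring for genes past the FDR limit of that tissue and a cross for genes with too few counts in lungs. The tumor values run from 0.28 (Cd80) to 2.87 (Ido1), and the 5 lung values from -0.47 (Cd80) to 0.21 (Havcr2).

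Whether the genotype acted differently in tumor and lung was tested directly in a joint fit of the 12 tumors and the 12 14-day lungs. The difference between the effects was called for Cd274 (1.65 ± 0.38 on the log2 scale, edgeR FDR 0.0395) and for Ido1 (3.21 ± 0.68, edgeR FDR 0.0261), against 0.707% of 16115 genes called in either direction and 0.558% with the tumor effect higher. All 10 genes had a positive difference with all samples, and Havcr2 turned to -0.08 ± 0.29 without KO tumors 5 and 6. For Pdcd1lg2 the difference was 1.78 ± 0.54 (edgeR FDR 0.161) and for Pdcd1 1.74 ± 0.63 (edgeR FDR 0.269), so that a difference between tissues was not shown for these genes. Ido1 had 1 to 9 counts in lungs and entered the joint fit through the tumors, where it was high, so its effect in lungs was hardly measured and its call says little of a difference between tissues. The same limit holds for Pdcd1lg2, Pdcd1, Lag3 and Tigit. Without KO tumors 5 and 6, Ido1 was still called (2.43 ± 0.50, edgeR FDR 0.0448) and Cd274 was not (1.24 ± 0.33, edgeR FDR 0.167). With each sample left out in turn, Cd274 lost its call in 14 of 24 fits, those without KO lungs 1, 3, 4, 5 or 6, WT lungs 2, 3 or 5, KO tumors 5 or 6, or WT tumors 2, 3, 4 or 5. Ido1 lost it in 3, those without WT lung 2, WT lung 3 or WT tumor 5. Whether a tumor and a lung came from the same mouse was not stated, and the fit treated them as separate.

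In WT hosts, tumors exceeded 14-day lungs in Pdcd1lg2 (log2 2.30 ± 0.37, edgeR FDR 3.31e-06), Tigit (1.17 ± 0.46, edgeR FDR 0.0260) and Cd80 (0.76 ± 0.30, edgeR FDR 0.0243), in a comparison where 75.5% of all genes were called and 37.1% as higher in tumors, so that 3 of 10 is no more than the background. Pdcd1lg2 and Tigit had at most 11 counts in any lung and passed the filter of the joint fit through the tumors, so that these 2 calls are no support for a difference. The call of Cd80 was lost without WT lung 4, WT lung 6, WT tumor 1 or WT tumor 5. The count was 1 without WT lung 4, WT lung 6 or WT tumor 5, and 5 without KO tumor 5 or WT tumor 2. Cd274 did not pass (-0.31 ± 0.28, edgeR FDR 0.314), and its mean in WT tumors (6.03 ± 1.44 FPKM) was the lowest of the 6 groups. Ordered by mean FPKM, tumors of KO hosts stood first for all 10 genes. Below them, neighbouring lung groups never differed by more than the larger of their SDs.

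Among the genes measured in tumors, those closest to Cd274 across the 12 tumors, with the mean of each host group removed, were Amdhd2 (Pearson r = 0.931), Sash1, Vps35, Bzrap1 and Ccrl2. For Ido1 they were RP23-336O18.3 (0.951), Casp4, Gbp2, Bst1 and B2m, and for Pdcd1 they were Impa2 (0.902), Zfp57, Glb1l, Smdt1 and Ano6. These values share libraries and depth and describe only these 12 tumors. Without the 2 tumors farthest from the median of the checkpoint gene, r ran from 0.835 (Amdhd2) to 0.906 (Ccrl2) for the 5 genes of Cd274, from 0.567 (Bst1) to 0.887 (Gbp2) for those of Ido1, and from 0.535 (Ano6) to 0.864 (Impa2) for those of Pdcd1. Of the 15 genes, Casp4, Gbp2 and B2m also rose in tumors of KO hosts, by log2 0.72, 1.56 and 0.95 (edgeR FDR 0.0221, 0.000541 and 0.000426).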

How the data were processed

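RNA-seq of 12 tumors and 20 lungs was analysed. The authors aligned reads to GRCm38 (mm10) with STAR and quantified genes with RSEM. The authors deposited RSEM expected counts as whole numbers, without normalization, and FPKM, scaled by them for transcript length and library size. From the expected counts, edgeR 4.0.16 (R 4.3.3) with TMM and filterByExpr was fitted to the 12 tumors, the 20 lungs, and the tumors with 14-day lungs, with one mean per group. FDR limits were 0.05, and 0.25 within lungs; SE is the log2 fold change over the square root of F. FPKM was used for levels, and for exact permutation tests with pseudocounts of 1 and 0.1. Replicate numbers are not stated to link samples, and no pairing was used. The 10 genes and all lists were chosen with earlier results of these data known. Named are all 10, up to 4 called genes per list and direction, every gene beside Cd274, and the 5 most alike genes of Cd274, Ido1 and Pdcd1. The fits were tested on simulated data. Alternatives were DESeq2 1.42.0, scaling by RLE, leaving the filter out, a minimum of 10 counts in each library, a replicate block, only the compared groups, an FDR of 0.25, and each sample left out. Samples of a group came from independent animals, per the study's text; batches are not given in the sources used here. One item of the gene lists and motifs is not reported here.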

Additional observations from a re-analysis of the deposited data

Results flagged for a closer look

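Of 60 sets of samples, 1 for each of the 10 genes in each of 6 groups, 8 held a sample far from the others by Dixon's test, where chance gives about 1 in 20. In tumors, these were Cd274 in KO tumor 5 (37.44 FPKM, next 20.01) and WT tumor 1 (8.75, next 6.14), and Cd80 in KO tumor 5 (3.79, next 2.46). In lungs, they were Cd274 in 14-day WT lung 5 (14.23 FPKM, next 7.72), Pdcd1lg2 in 14-day KO lung 5 (1.54, next 0.61), Lag3 in 14-day WT lung 2 (3.54, next 1.51), Ido1 in control WT lung 4 (1.09, next 0.52) and Cd80 in control KO lung 3 (1.72, next 0.40). The values of Pdcd1lg2, Lag3, Ido1 and Cd80 in lungs rest on at most 19 counts. The Lag3 value rests on 5 counts, in a group whose lungs held 5 to 8 counts and 0.849 to 1.298 CPM, and stands apart in FPKM only.

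In the joint fit, the interaction of host genotype and tissue passed the limit for Cd274 (difference in log2 fold change between tumors and 14-day lungs 1.65, edgeR FDR 0.0395) and for Ido1 (3.21, edgeR FDR 0.0261). The call of Cd274 was lost in 14 of 24 fits with 1 sample left out, and without KO tumors 5 and 6 (edgeR FDR 0.167). Ido1 had 1 to 9 counts in lungs, so its effect there was hardly measured.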

How the results depend on the processing

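In tumors, 4 of the 10 genes were called, and 3 to 5 with each tumor left out, 5 with DESeq2, 3 of 5 tested with at least 10 counts in every sample (Cd274, Pdcd1lg2 and Ctla4, the last at an edgeR FDR of 0.0487, with Ido1 and Pdcd1 not tested), and 6 at an FDR of 0.25. With the replicate block 4 were called, with Ctla4 in (edgeR FDR 0.0123) and Pdcd1 out (edgeR FDR 0.0514); deviations of same-numbered samples correlated between -0.287 and 0.106 for KO and WT tumors, 0.054 and 0.193 for KO tumors and KO lungs, and -0.028 and 0.094 for WT tumors and WT lungs, and not every pair was over 0.1. In the joint fit the block left both counts of calls as they were. In lungs, 0 were called in all 5 comparisons under every alternative run, single samples left out included. The difference between the effects in tumors and lungs called 2 genes, 3 at an FDR of 0.25, 1 with at least 10 counts in every sample (3 genes tested), 1 without KO tumors 5 and 6 (added after seeing the data) and 0 to 2 with single samples left out. For WT tumors against WT lungs, 3 genes were called, 6 at an FDR of 0.25, 0 with at least 10 counts and 1 to 5 with single samples left out. No log2 fold change of the 10 genes in tumors changed sign under any alternative in which that gene was tested. Not every gene was tested under each, and Lag3 was not tested without KO tumor 5 or KO tumor 6. Lungs gave too few counts for 5 of the 10 genes.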
